A study of Drosophila melanogaster with 16 samples.

Results

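The VT055068 libraries are bulk RNA from GFP-positive neurons of the fly brain (Drosophila melanogaster) of genotype R11B03-AD;VT055068-DBD > UAS-EGFP, and they were set here against the bulk libraries of the other drivers of the same study. They were taken by their label, and there are 2 of them (replicates A and B) among 6 bulk libraries and 16 samples in all, the others being single-cell samples that were not used here. The comparison groups are R11B03-AD;R77H08-DBD > UAS-EGFP (R77H08, 2 libraries), which carries the same activation-domain hemidriver as VT055068, and split-0367 > UAS-EGFP (SS00367, 2 libraries), a split driver for the sleep-promoting APDN3 neurons whose hemidrivers are not given in the labels. All 6 libraries came from brains dissected at ZT02, 2 h after lights on, of entrained flies, and all carry the same UAS-EGFP reporter. The study's methods give males and females in equal numbers for the sort of its single-cell samples and refer the bulk sort to it, and neither the age of the flies nor the number of brains or cells behind a bulk library is given in the sources used here. Nothing states that replicates A and B came from separate flies, so the p-values measure only the spread between these libraries, which may be technical.

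In a split-GAL4 driver the activation domain and the DNA-binding domain of GAL4 are expressed from different enhancers, and the reporter is on only in cells that use both. The DN3s are a large and varied group of dorsal clock neurons in the fly brain, in which CLK and CYC activate period, timeless and other genes of the circadian feedback loop. The study used VT055068 as a sparse driver for DN3 neurons and sorted the cells by their EGFP, so every library is a pool in which fewer cells of a type and less RNA per cell cannot be told apart.

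The measured value is a normalized read count per gene, and values of a gene are given below for replicate A and then B of each driver. Recovered reads were 505579 and 293824 in VT055068, 164631 and 330205 in R77H08 and 402302 and 364322 in SS00367, and of the 8334 genes tested 192 and 489 were at 0 in VT055068, against 1123 and 610 in R77H08 and 353 and 560 in SS00367. Over these genes the VT055068 libraries had a Pearson correlation of 0.907 on log2(value + 1) with each other, and of 0.714 to 0.766 (A) and 0.762 to 0.813 (B) with the 4 libraries of the other drivers, which reached 0.866 to 0.928 among themselves. The correlations run over genes, and genes are no replicates of each other. The neuronal genes elav, nSyb, brp and Syt1 were present in all 6 libraries, as were the 8 core clock genes, so the markers of the labelled cell type were there. The markers ninaE and trp (photoreceptors), Mhc, Act88F and sls (muscle) and Hml (hemocytes) were at most 5.21 in VT055068. The fat body marker apolpp had 37.2 and 12.02 in VT055068, against 1.95 and 6.76 in R77H08 and 10.6 and 17.7 in SS00367, which was not called (log2 difference 1.41 ± 0.58, limma adjusted p = 0.183), but was by edgeR and without R77H08 B.

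VT055068 differed from the other drivers mainly by genes that were higher. A gene was called at an adjusted p under 0.05 and a difference of at least 2-fold in limma on log2(value + 1), against the mean of R77H08 and SS00367. By that rule 605 of the 8334 genes (7.26%) were higher and 94 (1.13%) were lower in VT055068, so that 86.6% of the calls were on the higher side, and under quantile normalization 73.6% (547 higher and 196 lower). The median difference over all genes tested was 0.04 on the log2 scale. Among the higher genes 315 differed by at least 8-fold and 85 by at least 32-fold, whereas 2 of the lower genes reached 8-fold and 31 reached 4-fold. Of the higher genes 71 had no read in any of the 4 other libraries. These 71 passed the filter (a value of 1 in 2 libraries) through VT055068 alone, and of the other libraries R77H08 A was shallow (164631 reads, 1123 tested genes at 0). Set against R77H08 alone, 509 genes (6.11%) were higher and 82 (0.984%) lower. Set against SS00367 alone, 517 (6.2%) were higher and 107 (1.28%) lower, and both comparisons use the same VT055068 libraries. Of the genes called, 599 of the higher and 85 of the lower had VT055068 libraries that did not overlap the 4 others, which held for 16.8% (higher) and 10.1% (lower) of all genes. The called-higher genes took 16.5% and 10.7% of the summed values in VT055068 A and B, against 1.98% and 2.15% in R77H08 and 1.99% and 2.04% in SS00367. The called-lower genes took 2.34% and 3.58% in VT055068, against 8.88% and 7.89% in R77H08 and 9.61% and 8.36% in SS00367. Genes were called on these same values, so their lack of overlap and their summed shares follow from the choice and are no added evidence.

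The counts changed with the libraries included. With VT055068 B as the only VT055068 library (A left out) 143 genes were called higher and 24 lower, and with A as the only one 326 higher and 82 lower. Leaving out an R77H08 library gave 676 higher and 143 lower (without A) or 801 and 149 (without B), and leaving out an SS00367 library gave 416 and 38 (without A) or 432 and 43 (without B). The VT055068 libraries also differed from each other in the genes that set them apart: 496 of the 605 called-higher genes had the larger value in A, with a median difference of A over B of 0.71 on the log2 scale, while the median over all genes was 0.08. Of the 151 called genes that are named below or stand in the lists described, 88 lost their call without VT055068 A, 54 without VT055068 B, 54 without SS00367 A, 46 without SS00367 B, 8 without R77H08 A and 3 without R77H08 B, and none changed direction. Another 13 of the 151, with reads almost only in VT055068, fell below the filter without either VT055068 library and were not tested there.

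**Figure D1:**
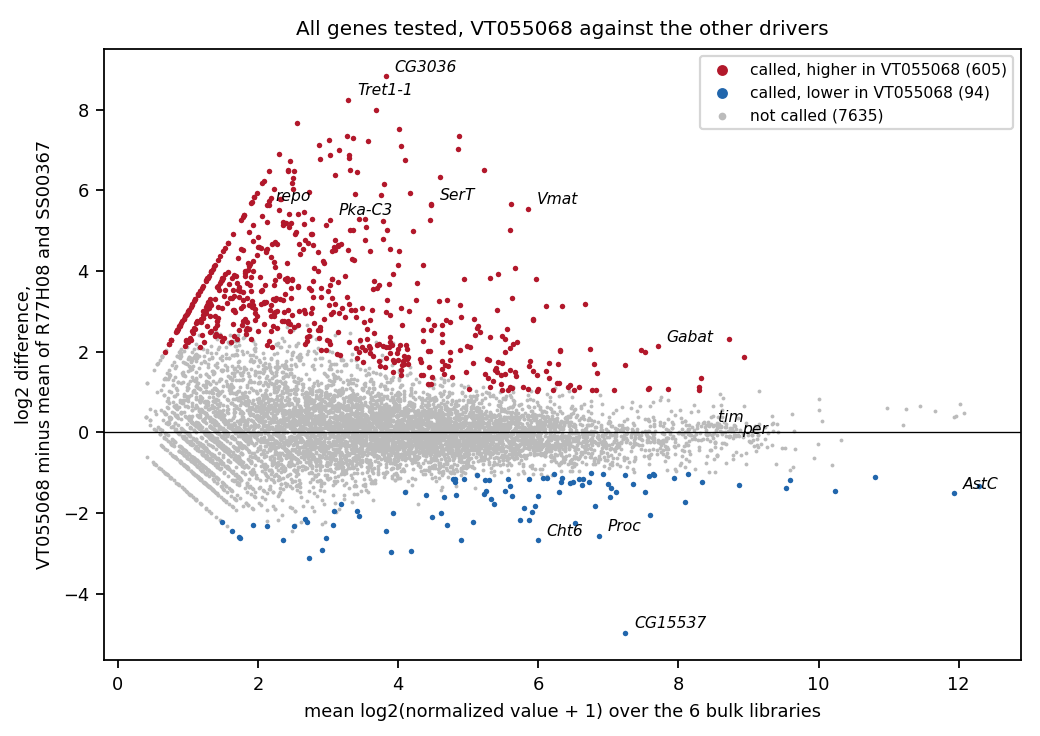
Log2 difference of VT055068 minus the mean of R77H08 and SS00367 (vertical axis) against the mean log2(normalized value + 1) over the 6 bulk libraries (horizontal axis), 1 point per gene tested. The 605 genes called higher (red) reach a log2 difference of 8.83, while the 94 called lower (blue) end at -3.11 but for CG15537 at -4.97, and tim and per lie near 0.

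The 15 largest differences with no overlap between libraries were all of genes that were higher in VT055068 and at no more than 11.8 in any library of the other drivers. CG3036 headed them, at 1173 and 595 in VT055068, against 1.95 and 1.13 in R77H08 and 0.816 and 0 in SS00367. Tret1-1, which encodes a trehalose transporter of the glia that form the blood-brain barrier, had 560.0 and 346 in VT055068, against 0 and 3.38 in R77H08 and 0 and 0 in SS00367. The VT055068 values of these genes were all at least 346 and no other value was over 3.38. CG3036 differed by 8.83 ± 0.47 on the log2 scale (± SE, limma adjusted p = 2.33e-07), and its reads were 1156-fold those of the other libraries, with a 95% counting interval of 395 to 5612. The exons of CG3036 overlap snsl on the other strand, so their reads may not be separable where strand was not used. For Tret1-1 the log2 difference was 8.25 ± 0.61 (limma adjusted p = 2.41e-06).

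lama, which encodes a phospholipase B-like protein and is known from neural and glial precursors, had 291 and 141 in VT055068 and no read in any R77H08 or SS00367 library, and was thus at least 283-fold higher against a floor of 3 reads over the 4 libraries (171-fold from B alone). CG4476 had 189 and 73.3 in VT055068 and was likewise listed at 0 in R77H08 and SS00367 (at least 176-fold higher, and 89.1-fold from B alone). Both genes set VT055068 apart from every library of the other drivers, but neither was called by DESeq2 (adjusted p = 0.151 for lama and 0.215 for CG4476). Without either VT055068 library they fell below the filter and were not tested. Among the others, CG6910 (myo-inositol oxygenase) had 811 and 331 in VT055068, against 3.90 and 3.38 in R77H08 and 0 and 1.97 in SS00367. The serine protease homologue gene scaf had 324 and 162 in VT055068, against 0 and 0 in R77H08 and 1.63 and 0.983 in SS00367. Spn43Ab and nec, which encode serpins and lie close together on chromosome arm 2R, had 551 and 347 and 304 and 167 in VT055068, and at most 3.38 in R77H08 and 1.97 in SS00367. The remaining genes, CG7135, CG10433, CG14687, CG10550, CG5687, CG5390 and CG15209, had log2 differences of 7.04 to 8.0. All 15 had the larger value in VT055068 A, by a median of 1.02 on the log2 scale, and all 15 had a log2 difference of at least 6.89.

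**Figure D2:**
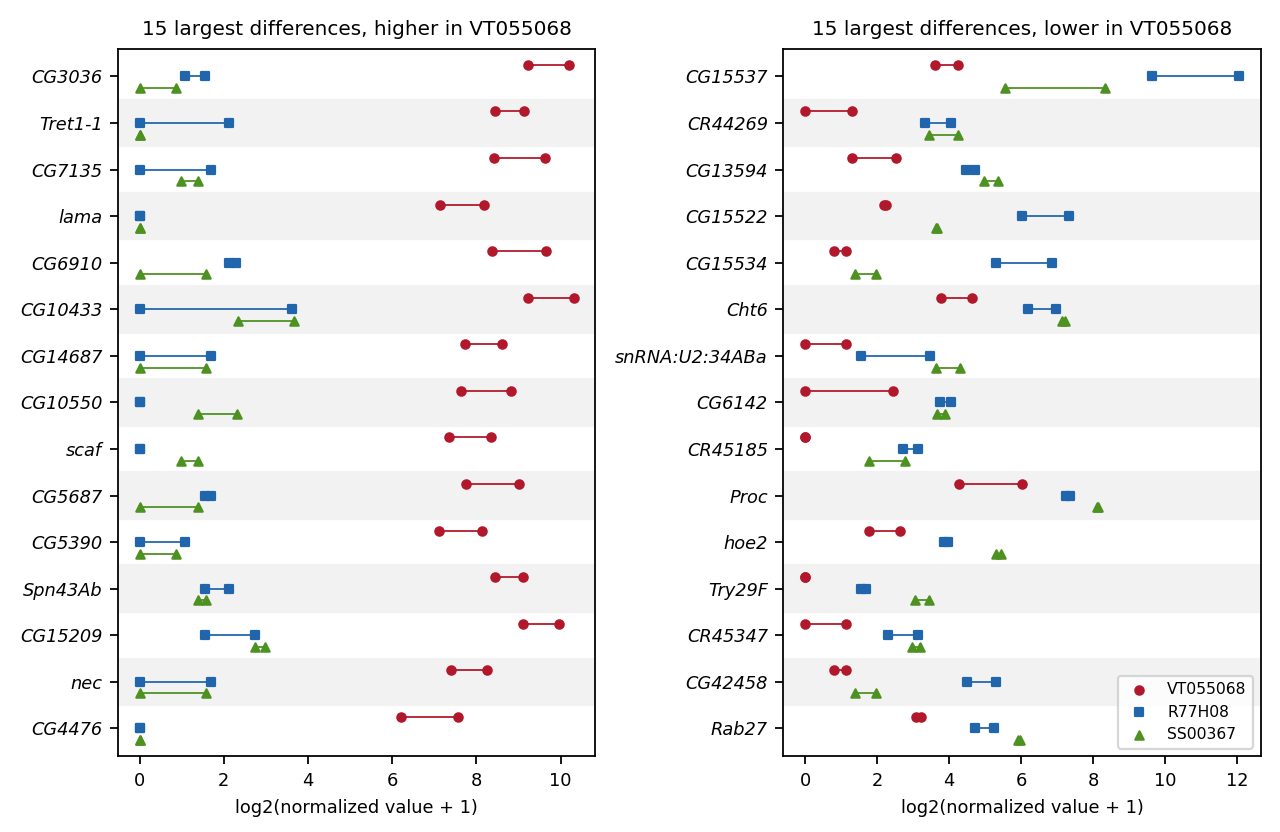
Log2(normalized value + 1) in each library (horizontal axis) of the 15 genes with the largest called difference in each direction, VT055068 in red above R77H08 in blue and SS00367 in green, with a line joining replicates A and B. On the left the VT055068 values start at 73.3 (CG4476) and the others end at 11.8 (CG10433), and on the right VT055068 lies below both other drivers.

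Genes of the glia that wrap the brain were among those that set VT055068 apart. Glia in flies fall into surface glia (perineurial and subperineurial cells, the blood-brain barrier), cortex glia, ensheathing glia and astrocyte-like glia, each with its own markers. Of the 13 glial markers tested, 6 were higher in VT055068 (46.2%, against 7.26% of all genes) and 0 lower (0 also at an unadjusted p under 0.05, and in edgeR and DESeq2), with a median log2 difference of 0.86, and the 6 were Tret1-1, CG6126, Indy, Mdr65, repo and moody. repo, the homeobox gene of nearly all glia, had 52.1 and 64.9 in VT055068, against 0 and 0 in R77H08 and 0 and 0.983 in SS00367. The organic ion transporter gene CG6126 had 268 and 189.9 in VT055068, against 1.95 and 2.25 in R77H08 and 0.816 and 0 in SS00367. Mdr65, an efflux transporter of the subperineurial barrier, had 135 and 51.7 in VT055068, against 1.95 and 1.13 in R77H08 and 1.63 and 0.983 in SS00367. Over these 3 genes the lowest VT055068 value was 51.7 and the highest of the other drivers 2.25. The log2 differences were 5.64 ± 0.64 for repo, 6.79 ± 0.51 for CG6126 and 5.14 ± 0.59 for Mdr65 (± SE, limma adjusted p at most 6.52e-05). The citrate transporter gene Indy had 199 and 133 in VT055068, against 0 and 1.13 in R77H08 and 2.45 and 0.983 in SS00367 (log2 difference 6.39 ± 0.57, limma adjusted p = 8.16e-06). Indy is no glial marker alone, as it also stands in the study's gene list of the neuronal cluster DN3_5, where it had the largest difference. moody, a receptor needed for the barrier, was higher from a smaller level, with 16.4 and 19.2 in VT055068, against 0 and 3.38 in R77H08 and 0.816 and 2.95 in SS00367 (log2 difference 2.98 ± 0.73, limma adjusted p = 0.018), and its call was lost without either VT055068 library and without SS00367 A. The larger value was in VT055068 A for Tret1-1, CG6126, Indy and Mdr65 and in B for repo and moody, and 4 of the 13 markers were called without either VT055068 library, where repo fell below the filter and was not tested.

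Markers of other glial types gave mixed values, and the split of the 13 markers by glial type was not a list of its own and was not tested. alrm, an astrocyte gene, was at 0 and 0 in VT055068, against 0 and 9.02 in R77H08 and 2.45 and 0.983 in SS00367. The GABA transporter gene Gat had 0.744 and 2.40 in VT055068, against 0 and 2.25 in R77H08 and 0 and 0 in SS00367, which amounts to at most 2 reads a library. Neither gene was called, though alrm was called lower without R77H08 A. Eaat1, the glial glutamate transporter, had 34.95 and 13.2 in VT055068, against 401 and 207 in R77H08 and 1.63 and 1.97 in SS00367, so that VT055068 lay between the other drivers, with a log2 difference of -3.68 from R77H08 and 3.02 from SS00367 (both called) and of -0.33 from their mean. wrapper, a cortex glia gene, was not among the genes listed. Over the whole marker list the share of the summed values was 0.363% and 0.251% in VT055068, against 0.143% and 0.0915% in R77H08, most of it Eaat1, and 0.0167% and 0.0148% in SS00367. The part that glial RNA had in the other differences of VT055068 was not tested.

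Also higher were 4 genes of extracellular matrix proteins that are known from the basement membrane, the sheet on the outer face of the brain, and no list of such genes was counted. SPARC, a collagen-binding matrix protein, had 997 and 441 in VT055068, against 7.79 and 18.03 in R77H08 and 12.2 and 12.8 in SS00367. The collagen IV genes Col4a1 and vkg, which lie head to head on chromosome arm 2L (5029609 to 5037279 on the plus strand and 5012144 to 5028191 on the minus strand, dm6), had 188 and 112 (Col4a1) and 93.0 and 44.5 (vkg) in VT055068, against at most 11.3 and 9.02 in R77H08 and 5.71 and 5.90 in SS00367. Timp, an inhibitor of matrix metalloproteinases, had 209 and 121 in VT055068, against 1.95 and 2.25 in R77H08 and 1.63 and 0.983 in SS00367. All 4 genes had their larger value in VT055068 A, and both VT055068 libraries lay above every other library, with log2 differences of 5.65 ± 0.37 for SPARC, 5.91 ± 0.50 for Timp, 5.02 ± 0.74 for Col4a1 and 3.29 ± 0.48 for vkg (± SE, limma adjusted p at most 0.000493). The call of vkg was lost without VT055068 A, and that of Col4a1 with a pseudocount of 0.1. SPARC and Timp were named after their values were seen. The collagen genes stand in the hemocyte list, of which 2 of 5 tested members were higher (40%, against 7.26% of all genes). The hemocyte gene Hml had 2.23 and 2.40 in VT055068, against 0 and 3.38 in R77H08 and 3.26 and 1.97 in SS00367, which was not called, and the exons of Timp overlap Syn on the other strand, so their reads may not be separable where strand was not used.

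Another set of large differences was in the genes of serotonin neurons. Serotonin is made from tryptophan by tryptophan hydroxylase (Trhn, listed as Trh) and Ddc, loaded into vesicles by Vmat and taken up again by SerT. Trh had 164 and 212 in VT055068, against 0 and 15.8 in R77H08 and 4.89 and 10.8 in SS00367. SerT had 245 and 370.3 in VT055068, against 0 and 19.2 in R77H08 and 4.08 and 11.8 in SS00367. Vmat, which also serves dopamine and octopamine neurons, had 729 and 768 in VT055068, against 7.79 and 21.4 in R77H08 and 13.1 and 22.6 in SS00367. The lowest VT055068 value of the 3 genes was 164 and the highest of the other drivers 22.6, and within R77H08 the A library had no read of Trh or SerT. The log2 differences were 5.0 ± 0.79 for Trh (limma adjusted p = 0.000828), 5.65 ± 0.83 for SerT (limma adjusted p = 0.000479) and 5.55 ± 0.35 for Vmat (limma adjusted p = 6.59e-07). These calls held with each of the 6 libraries left out in turn, and those of Trh and SerT were lost only with a pseudocount of 0.1 (limma adjusted p = 0.0919 and 0.0746).

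All 3 had the larger value in VT055068 B. Ddc, the enzyme shared by serotonin and dopamine synthesis, had 149 and 173 in VT055068, against 156 and 153 in R77H08 and 117 and 173 in SS00367 and was not called (log2 difference 0.11 ± 0.23). The dopamine genes ple (tyrosine hydroxylase) and DAT (dopamine transporter) were low everywhere, with ple at 2.23 and 10.8 in VT055068, against 21.4 and 3.38 in R77H08 and 2.45 and 3.93 in SS00367. Tbh, the enzyme that makes octopamine, went the other way, with 78.1 and 189 in VT055068, against 317 and 328 in R77H08 and 537 and 486 in SS00367 (log2 difference -1.73 ± 0.30, limma adjusted p = 0.00163), and its call was lost without VT055068 A. The vesicular glutamate transporter gene VGlut was lower too, with 331 and 465 in VT055068, against 662 and 1684 in R77H08 and 826 and 1188 in SS00367 (log2 difference -1.38 ± 0.34, limma adjusted p = 0.0189), a call that was lost without either VT055068 library or either SS00367 library. Of the 16 genes of transmitter synthesis and loading tested, 3 were higher (18.8%, against 7.26% of all genes) and 2 lower (12.5%, against 1.13%), and ChAT (acetylcholine), VGAT and Gad1 (GABA) were not called.

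**Figure D3:**
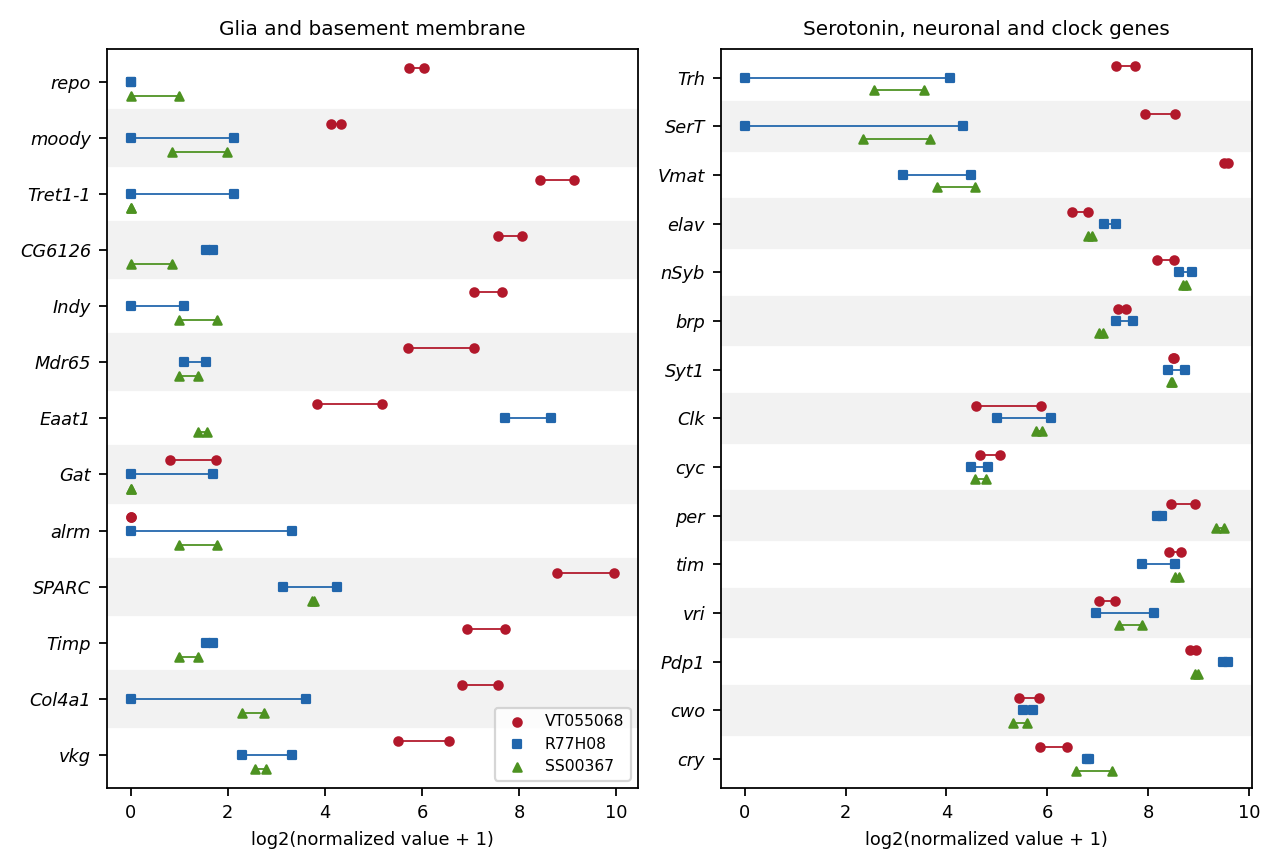
Log2(normalized value + 1) in each library (horizontal axis) of glial and basement membrane genes (left) and of serotonin, neuronal and clock genes (right), VT055068 in red above R77H08 in blue and SS00367 in green, with a line joining replicates A and B. VT055068 stands apart for the surface glia, matrix and serotonin genes, not for alrm or Gat, and falls among the other drivers for most neuronal and clock genes.

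The study compared its bulk libraries with clusters of single DN3 cells. By correlation it matched VT055068 best to DN3_3 and more weakly to several others, SS00367 to DN3_7, and R77H08 to DN3_4, DN3_6 and DN3_7. Gene lists of the study's clusters DN3_1 to DN3_7 were counted here in the same bulk data, so the counts are not independent of those matches. They were chosen by the study on the single cells of the same series, they share members, and they have 13 to 200 tested genes. Of the 28 genes of cluster DN3_3, 15 were higher in VT055068 (53.6%, against 7.26% of all genes) and 0 lower (0 also at an unadjusted p under 0.05, and in edgeR and DESeq2), with a median log2 difference of 1.74. The count was 9 against R77H08 and 13 against SS00367, and again 0 were lower. It was 4 without VT055068 A and 6 without VT055068 B, 10 to 16 without a library of another driver, and 8 to 17 over the other settings, with 0 lower in all of them.

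Pka-C3, a catalytic subunit of protein kinase A, had 87.7 and 97.4 in VT055068, against 0 and 2.25 in R77H08 and 1.63 and 2.95 in SS00367. dati, a zinc finger transcription factor gene, had 101 and 91.4 in VT055068, against 0 and 2.25 in R77H08 and 6.53 and 12.8 in SS00367. Pvf3, a ligand of the fly PDGF and VEGF receptor, had 98.9 and 114 in VT055068, against 3.90 and 16.9 in R77H08 and 8.97 and 17.7 in SS00367. For each of them both VT055068 values were well above all 4 others. The log2 differences were 5.28 ± 0.60 for Pka-C3, 4.50 ± 0.54 for dati and 3.25 ± 0.47 for Pvf3 (± SE, limma adjusted p at most 0.000457), and all 3 stayed called under each of the 17 alternative settings, left-out libraries included. The collagen gene Mp (Multiplexin) had 76.6 and 63.7 in VT055068, against 13.6 and 3.38 in R77H08 and 6.53 and 11.8 in SS00367, and the potassium channel gene eag 86.3 and 98.6 in VT055068, against 17.5 and 55.2 in R77H08 and 1.63 and 10.8 in SS00367. R77H08 B came closest to VT055068 in eag, which was not called against R77H08 alone (log2 difference 1.53) and was called against SS00367 (4.06). The other called members were Fas3, Myo31DF, CG31997, dpr17, CG43373, pyd, oaf, Drep3, hbs and CG44838, with log2 differences of 1.08 to 2.98. Of the 15, oaf alone had overlapping libraries, at 75.1 and 106 in VT055068, against 31.2 and 93.5 in R77H08 and 10.6 and 11.8 in SS00367.

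The 13 members that were not called included TrissinR, the receptor gene of the peptide Trissin, with 57.3 and 76.9 in VT055068, against 66.2 and 189 in R77H08 and 79.1 and 72.7 in SS00367 (log2 difference -0.47 ± 0.34, limma adjusted p = 0.534). The DN3_3 members that were called differed from the called genes as a whole in the order of the replicates. Of the 15, 12 had the larger value in B, and the median of A over B was -0.19 on the log2 scale. This order was not particular to them. Only 2 of 15 neuronal core genes and 8 of 38 ion channel genes tested had the larger value in A (medians -0.19 and -0.32). Of the called-higher DN3_1 genes, 3 of 5 had it in A.

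**Figure D4:**
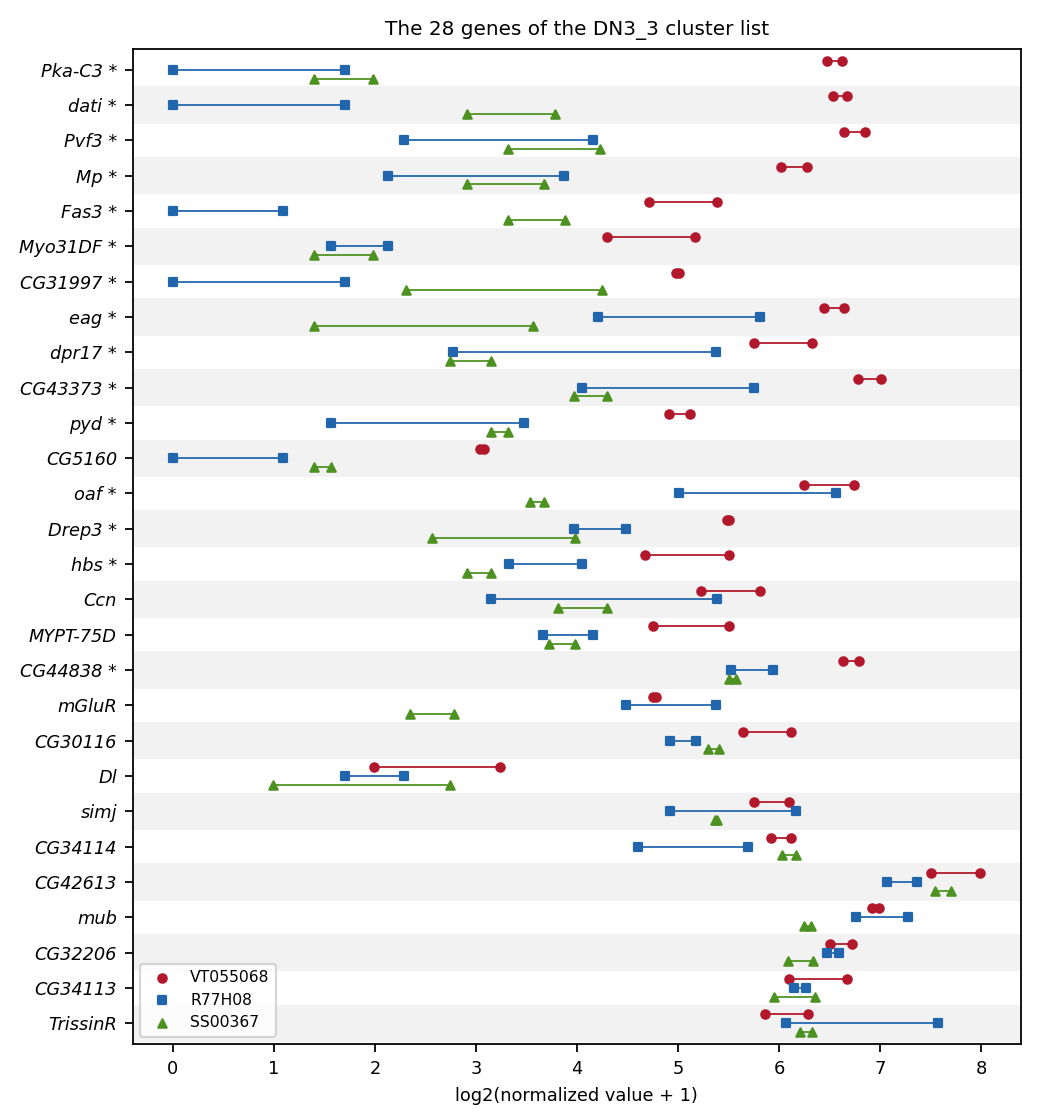
Log2(normalized value + 1) in each library (horizontal axis) of the 28 genes of the DN3_3 cluster list, ordered by log2 difference, VT055068 in red above R77H08 in blue and SS00367 in green, with a line joining replicates A and B. An asterisk marks the 15 genes called higher, and TrissinR, at the foot, has the lowest difference (-0.47).

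The other DN3 lists counted, those of DN3_1, DN3_2 and DN3_4 to DN3_7, held calls in both directions. The study describes further DN3 clusters, whose genes were not counted here. All counts are relative to R77H08 and SS00367, which the study matched to DN3_7, and R77H08 also to DN3_4 and DN3_6. The list of DN3_7 had 4 of 200 genes higher (2%, against 7.26% of all genes) and 33 lower (16.5%, against 1.13%). Its median log2 difference was -0.32. The lower count was 26 against R77H08 and 39 against SS00367, fell to 9 without VT055068 A and to 16 and 17 without SS00367 A and B, and was 9 to 44 over the other settings. DN3_6 had 2 of 23 genes higher and 8 lower (34.8%, median -0.63), with 13 lower against R77H08 and 6 against SS00367, and 4 lower without VT055068 A. DN3_4 had 2 of 13 higher and 3 lower (median -0.61), DN3_1 5 of 21 higher and 3 lower (0.54), DN3_2 5 of 35 higher and 5 lower (0.03) and DN3_5 8 of 42 higher and 4 lower (-0.30). The 8 higher genes of DN3_5 include Indy, which is counted among the glial markers too. Beside the median of 0.04 over all genes, DN3_3 was the highest of these medians and DN3_6 the lowest.

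Among the DN3_7 genes that were lower, CG31345 had 13.4 and 25.2 in VT055068, against 79.9 and 57.5 in R77H08 and 115 and 110.1 in SS00367 and CG18599 51.3 and 106 in VT055068, against 294 and 414 in R77H08 and 292 and 256 in SS00367, with log2 differences of -2.18 ± 0.30 and -2.05 ± 0.28 (± SE, limma adjusted p at most 0.000302). No VT055068 library reached the values of the other drivers for either gene. The 4 DN3_7 genes that were higher included Gabat (GABA transaminase), with 651 and 475 in VT055068, against 125 and 106 in R77H08 and 149 and 129 in SS00367, and Hex-A (hexokinase), with 591 and 357 in VT055068, against 101 and 172 in R77H08 and 71.8 and 142 in SS00367. These and the other 2, CG9413 (the amino acid transporter gene sbm) and RpS18, had the larger value in VT055068 A, and the call of Hex-A was lost without VT055068 A.

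**Figure D5:**
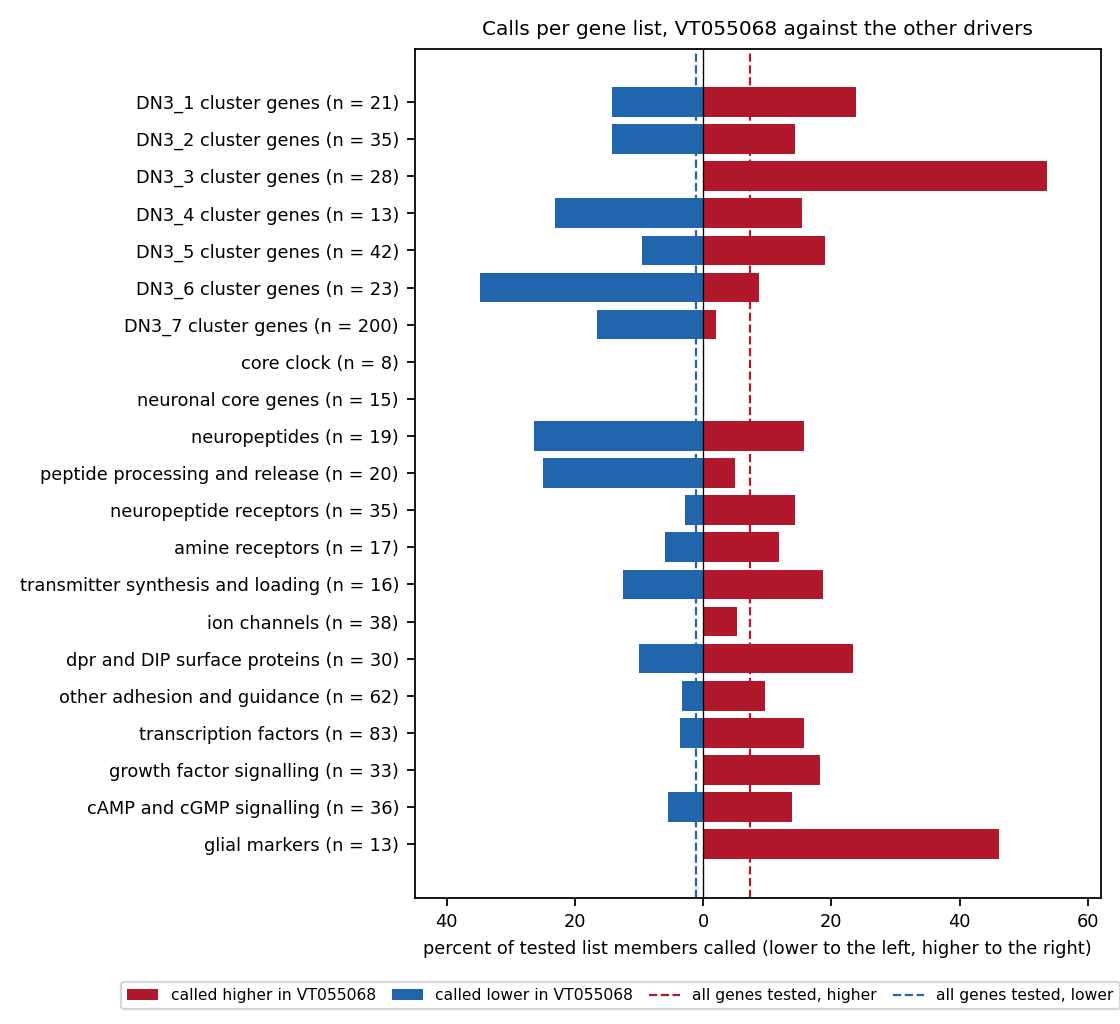
Percent of the tested members of each gene list that were called lower (blue, to the left) or higher (red, to the right) in VT055068 against the mean of R77H08 and SS00367, with the number tested in parentheses. Dashed lines mark all genes tested, at 7.26% higher and 1.13% lower, and the bars of DN3_3 (53.6%) and of the glial markers (46.2%) reach farthest to the right and that of DN3_6 (34.8%) farthest to the left.

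None of the 8 core clock genes was called by limma, in this comparison or against either driver, and none under any alternative setting, edgeR and DESeq2 included (1, cry, had an unadjusted p under 0.05). tim had 341 and 402 in VT055068, against 370.1 and 233 in R77H08 and 392 and 372 in SS00367. per had 348 and 486 in VT055068, against 288 and 310.0 in R77H08 and 730.1 and 654 in SS00367. The VT055068 values lay within the range of the other drivers for per and, but for 1 library, for tim. The log2 differences of the 8 genes ran from -0.74 for cry to 0.20 for cyc, and cry, the blue-light receptor, had 57.3 and 82.9 in VT055068, against 109 and 113 in R77H08 and 94.6 and 154 in SS00367 (limma adjusted p = 0.113), with the VT055068 libraries below the others. A difference under 2-fold could not be called by the rule used. With standard errors of 0.22 to 0.38, one somewhat over 2-fold could also go undetected in some of these genes. Of the 15 neuronal core genes tested 0 were called in either direction by limma, edgeR or DESeq2 (1 higher and 2 lower at an unadjusted p under 0.05), with a median of -0.09.

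Of 19 neuropeptide genes tested (of 44 on the list), 3 were higher (15.8%, against 7.26% of all genes) and 5 lower (26.3%, against 1.13%). AstC, which encodes allatostatin C, had 1677 and 2279 in VT055068, against 5022 and 5181 in R77H08 and 6442 and 5714 in SS00367. Nplp1 had 234 and 274 in VT055068, against 561 and 730.4 in R77H08 and 592 and 639 in SS00367. Proc, the gene of proctolin, had 18.6 and 63.7 in VT055068, against 150.0 and 163 in R77H08 and 283 and 276 in SS00367. In all 3 both VT055068 libraries lay below the 4 others. The log2 differences were -1.51 ± 0.31 for AstC, -1.31 ± 0.23 for Nplp1 and -2.56 ± 0.36 for Proc (± SE, limma adjusted p at most 0.00615). The call of Proc held under every setting, that of AstC was lost without either library of VT055068 or of SS00367, and that of Nplp1 without VT055068 A. The diuretic hormone gene Dh44 was lower by the same rule but overlapped R77H08, with 339.8 and 589 in VT055068, against 1264 and 586 in R77H08 and 1179 and 1217 in SS00367 (log2 difference -1.18 ± 0.32, limma adjusted p = 0.0329), and was not called without VT055068 A, R77H08 A, SS00367 A or SS00367 B. AstCC, the neighbour of AstC on arm 2L, was at 0 in VT055068 and 0 and 1.13 in R77H08, against 14.7 and 39.3 in SS00367. It was the remaining gene called lower (log2 difference -2.60), though it overlapped R77H08, and its call was lost in edgeR and DESeq2.

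Among the peptide genes that were higher, ITP and Dh31 are known from other clock neurons. ITP (ion transport peptide), a gene of the lateral clock neurons, had 96.7 and 34.9 in VT055068, against 3.90 and 1.13 in R77H08 and 0 and 1.97 in SS00367 (log2 difference 4.65 ± 0.69, limma adjusted p = 0.000523), and its call was lost without VT055068 A. Its exons overlap CG4622 on the other strand, which had 3.72 and 6.01 in VT055068 and no more than 9.74 elsewhere. Dh31, a peptide of DN1p neurons, had 29.7 and 70.9 in VT055068, against 7.79 and 45.1 in R77H08 and 6.53 and 2.95 in SS00367, with 1 R77H08 library inside the range of VT055068. spab had 26.03 and 20.4 in VT055068, against 0 and 4.51 in R77H08 and 6.53 and 5.90 in SS00367. Other identity peptides were at or near 0 in VT055068, namely Pdf at 2.23 and 1.20, NPF at 0.744 and 0, AstA at 2.97 and 1.20, CNMa at 0.744 and 1.20 and CCHa1 at 0 and 0. Over all 19 genes the median log2 difference was -0.67, and without VT055068 A the counts were 0 higher and 1 lower.

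Genes of peptide processing and release were lower as well. The proprotein convertase gene amon had 113 and 262 in VT055068, against 290.2 and 416 in R77H08 and 377 and 356 in SS00367. 7B2, the helper of this convertase, had 942 and 1223 in VT055068, against 1843 and 1963 in R77H08 and 2824 and 2826 in SS00367. IA-2, a protein of dense-core vesicles, had 2286 and 3181 in VT055068, against 7240.1 and 4949 in R77H08 and 8696 and 7024 in SS00367. Each was lower in both VT055068 libraries than in any other. The call of amon was lost in edgeR and DESeq2, and without VT055068 A, R77H08 B or either SS00367 library. Those of 7B2 and IA-2 were lost without either library of VT055068 or of SS00367. Sytalpha, a synaptotagmin, and Rab27, a GTPase of vesicle release, were also lower, with log2 differences of -1.24 ± 0.23 and -2.31 ± 0.32 (± SE, limma adjusted p = 0.00291 and 0.000335). In the other direction Nep4, a peptide-degrading neprilysin, had 40.2 and 30.1 in VT055068, against 0 and 0 in R77H08 and 0.816 and 1.97 in SS00367. In sum 5 of 20 genes of the list were lower (25%, against 1.13% of all genes) and 1 higher, and the lower count was 1 without VT055068 A and 2 without SS00367 A or B.

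Of 35 neuropeptide receptor genes 5 were higher (14.3%, against 7.26% of all genes) and 1 lower (2.86%, against 1.13%), with a median of -0.04 beside the 0.04 of all genes. sNPF-R, the receptor of short neuropeptide F, had 132 and 106 in VT055068, against 27.3 and 11.3 in R77H08 and 18.8 and 18.7 in SS00367 (log2 difference 2.63 ± 0.35, limma adjusted p = 0.000211). Dh44-R2 had 46.8 and 25.2 in VT055068, against 9.74 and 6.76 in R77H08 and 4.89 and 6.88 in SS00367. Lgr1, a receptor of the glycoprotein hormone family, had 13.4 and 31.3 in VT055068, against 0 and 4.51 in R77H08 and 0 and 2.95 in SS00367. In all 3 both VT055068 libraries were above every other library, as they were for Proc-R (15.6 and 4.81, against 0 and 0 in R77H08 and 0 and 0.983 in SS00367) and CCKLR-17D3, a sulfakinin receptor, at 13.4 and 8.41. TkR86C was the lower gene, with 13.4 and 37.3 in VT055068, against 58.4 and 52.97 in R77H08 and 73.4 and 72.7 in SS00367. Of 17 amine receptor genes 2 were higher (11.8%) and 1 lower (5.88%). CG18208 (Octalpha2R, an octopamine receptor) had 117 and 96.2 in VT055068, against 5.84 and 7.89 in R77H08 and 6.53 and 8.85 in SS00367 (log2 difference 3.71 ± 0.37, limma adjusted p = 1.87e-05), and TyrR, a tyramine receptor, 29.7 and 31.3 in VT055068, against 5.84 and 9.02 in R77H08 and 4.08 and 3.93 in SS00367. Both were called higher with no overlap, while the octopamine receptor gene Oamb was lower, with 10.4 and 46.9 in VT055068, against 50.6 and 45.1 in R77H08 and 138 and 166 in SS00367. Oamb overlapped R77H08 and was not called against it alone, and its call was lost without VT055068 A and without either SS00367 library. Of 11 acetylcholine receptor genes 0 were higher (1 at an unadjusted p under 0.05) and 1 lower (9.09%, against 1.13% of all genes). The lower one was the muscarinic gene mAChR-B (-1.47 on the log2 scale). Of 13 glutamate receptor genes 1 was higher and 1 lower (7.69% each, against 7.26% and 1.13% of all genes). The lower one was the NMDA receptor gene Nmdar2 (-1.06), and the higher one GluRIIA, a subunit known from the neuromuscular junction. GluRIIA had 20.1 and 3.61 in VT055068 (27 and 3 reads) and no read in R77H08 or SS00367, at least 16.7-fold higher but 4.38-fold from B alone, and it was not called by DESeq2 (adjusted p = 0.701). Of 6 GABA receptor genes 0 were called (0 higher and 2 lower at an unadjusted p under 0.05). Of 38 ion channel genes 2 were higher, eag and SLO2, a share of 5.26% that is under that of all genes.

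The dpr and DIP genes encode surface proteins of the immunoglobulin type, and members of the dpr family bind members of the DIP family on other neurons. In VT055068, 7 of 30 were higher (23.3%, against 7.26% of all genes) and 3 lower (10%, against 1.13%), with a median of 0.18. dpr1 had 37.9 and 58.9 in VT055068, against 5.84 and 0 in R77H08 and 2.45 and 4.91 in SS00367. dpr20 was at 9.67 and 16.8 in VT055068 and had no read in R77H08 or SS00367, so it was at least 15.1-fold higher. dpr13 went the other way, with 30.5 and 32.5 in VT055068, against 138 and 273 in R77H08 and 122 and 118 in SS00367. The remaining calls were dpr6, dpr9, dpr17, dpr18 and DIP-eta, with log2 differences of 2.15 to 3.03, and dpr3 and DIP-beta, at -1.12 and -1.47. None of the 7 higher genes was called without VT055068 A or without VT055068 B, where dpr20 fell below the filter and was not tested, 3 were without SS00367 A, and 6 of the 7 had the larger value in B. dpr13 remained called under every setting.

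Of 62 other adhesion and guidance genes 6 were higher (9.68%) and 2 lower (3.23%), shares that lie near the 7.26% and 1.13% of all genes. Fas2, the fly NCAM, had 333 and 206 in VT055068, against 9.74 and 20.3 in R77H08 and 16.3 and 21.6 in SS00367 (log2 difference 3.92 ± 0.34, limma adjusted p = 6e-06). The cadherin gene CadN2 had 38.7 and 57.7 in VT055068, against 138 and 251 in R77H08 and 148 and 164 in SS00367 (log2 difference -1.83 ± 0.28, limma adjusted p = 0.000615). Neither gene had overlapping libraries. In the list of beat and side genes 1 of 21 was higher and 1 lower (4.76% each, against 7.26% and 1.13% of all genes). The higher one, beat-IIIc of the beaten path family, had 115 and 48.1 in VT055068, against 1.95 and 4.51 in R77H08 and 4.08 and 0 in SS00367. Dscam3, hbs, Fas3, robo3 and ed were the other adhesion genes called higher, by 1.44 to 2.98 on the log2 scale, and kek1 (-1.28) was lower, as was beat-IIa of the beaten path family (-1.18).

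Of 83 transcription factor genes tested, 13 were higher (15.7%, against 7.26% of all genes) and 3 lower (3.61%, against 1.13%). Optix, a homeobox gene of the sine oculis family, had 95.9 and 45.7 in VT055068, against 0 and 0 in R77H08 and 0 and 0.983 in SS00367 (log2 difference 5.82 ± 0.65, limma adjusted p = 5.76e-05). pb, a Hox gene, had 9.67 and 9.62 in VT055068 and no read in R77H08 or SS00367, at least 11.7-fold higher. lov, a BTB-domain factor gene, had 10.4 and 16.8 in VT055068, against 0 and 0 in R77H08 and 0.816 and 0 in SS00367. These 3 genes had at most 0.983 in the other drivers, whereas dati reached 12.8 in SS00367. dve, zfh2, foxo, tup, mirr, pdm2 and nub were higher from low levels, nub at 5.95 and 2.40 against no read in the other drivers (at least 5.58-fold higher, and 2.92-fold from B alone). Homeobox genes with more reads in every library were higher by less, hth at 170.3 and 151 in VT055068, against 70.1 and 75.5 in R77H08 and 67.7 and 78.6 in SS00367 and pdm3 at 144 and 120.2 in VT055068, against 87.7 and 236 in R77H08 and 12.2 and 25.6 in SS00367, the values of pdm3 in VT055068 lying between those of the R77H08 libraries. The lower genes were Rfx, with 58.7 and 63.7 in VT055068, against 208 and 219 in R77H08 and 167 and 162 in SS00367, rn, at -1.97 on the log2 scale, and ap, at -1.14. Without VT055068 A or B the list had 1 and 2 genes called higher, and 4 of the 13 (Optix, pb, lov and nub) were below the filter there and not tested, while without SS00367 A or B it had 8 and 7.

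In the cAMP and cGMP pathways 5 of 36 genes were higher (13.9%, against 7.26% of all genes) and 2 lower (5.56%, against 1.13%). Over the settings other than left-out libraries, the list had 3 to 6 genes higher and 0 to 3 lower. for, the cGMP-dependent protein kinase gene known for its foraging variants, had 103 and 49.3 in VT055068 and no read in R77H08 or SS00367, at least 99.9-fold higher (59.9-fold from B alone), and was not called by DESeq2. Nos, the nitric oxide synthase gene, had 11.2 and 21.6 in VT055068, against 0 and 0 in R77H08 and 0.816 and 0 in SS00367. Both were close to absent in the other drivers. Pde1c and Pde6, which degrade cyclic nucleotides, were higher by 1.79 and 2.04 on the log2 scale. The call of Pde6 was lost in DESeq2 and under quantile normalization, among other settings. The adenylyl cyclase gene Ac13E had 49.8 and 96.2 in VT055068, against 158 and 100.3 in R77H08 and 218 and 243 in SS00367, and the guanylyl cyclase gene Gyc32E 91.5 and 90.2 in VT055068, against 253 and 144 in R77H08 and 205 and 178 in SS00367, both lower in VT055068 than in every other library.

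Of 33 growth factor signalling genes 6 were higher (18.2%, against 7.26% of all genes) and 0 lower (2 at an unadjusted p under 0.05, and 0 in edgeR and DESeq2), with a median of 0.47. Besides Pvf3 they were htl, an FGF receptor gene, with 26.8 and 13.2 in VT055068, against 1.95 and 0 in R77H08 and 0.816 and 0 in SS00367, the activin-type ligand genes daw and myo, with 18.6 and 7.21 (daw) and 46.1 and 20.4 (myo) in VT055068 and at most 4.08 in R77H08 or SS00367, the Wnt receptor gene fz, with 41.6 and 44.5 in VT055068, against 15.6 and 23.7 in R77H08 and 4.89 and 2.95 in SS00367, and ci, the transcription factor gene of the Hedgehog pathway, with 26.8 and 12.02 in VT055068, against 0 and 0 in R77H08 and 1.63 and 0 in SS00367. In htl, daw, myo and ci the larger value was in VT055068 A, and in Pvf3 and fz in B. Without VT055068 A 1 of the 6 stayed called, and without B 5. Outside this list fng, a glycosyltransferase that acts on Notch, had 99.6 and 36.1 in VT055068, against 1.95 and 0 in R77H08 and 1.63 and 0 in SS00367 (log2 difference 5.19 ± 0.73, limma adjusted p = 0.000321).

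Among the 15 largest differences in the lower direction, CG15537 led with 11.2 and 18.03 in VT055068, against 795 and 4277 in R77H08 and 45.7 and 321 in SS00367 (log2 difference -4.97 ± 0.66, limma adjusted p = 0.000223). Its values spread widely within R77H08 and SS00367 and yet lay above VT055068 in every library. CG15534, whose gene ends beside that of CG15537 on arm 3R (30432064 to 30435139 on the plus strand, and 30435177 to 30443599 on the minus strand, dm6), had 0.744 and 1.20 in VT055068, against 38.96 and 115 in R77H08 and 1.63 and 2.95 in SS00367, so its difference lay with R77H08 (log2 difference -5.12, called) and not with SS00367 (-0.72, not called). CG15522 and CG42458 showed the same split, called against R77H08 and not against SS00367. The chitinase gene Cht6 had 12.6 and 24.04 in VT055068, against 72.1 and 125 in R77H08 and 139 and 149 in SS00367 (log2 difference -2.68 ± 0.31, limma adjusted p = 6.63e-05), and was lower against both drivers. CR45185, a non-coding gene antisense to Cht6 within it, had no read in VT055068 and at most 7.79 in the other drivers, and reads of the overlapping genes may not be separable. CR44269, CG13594, snRNA:U2:34ABa, CG6142, hoe2, Try29F and CR45347 were at most 5.21 in VT055068 and at most 42.3 in the other drivers, so they rest on few reads.

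Of the genes that the study named for neuronal activity or for differences between other clock neuron clusters, CG17778 was higher, with 20.8 and 54.1 in VT055068, against 7.79 and 11.3 in R77H08 and 4.89 and 14.7 in SS00367 (log2 difference 1.79 ± 0.52, limma adjusted p = 0.0464). This call was lost in 8 of 17 alternative settings, among them the removal of either VT055068 library. The activity-regulated genes Hr38, with 46.8 and 58.9 in VT055068, against 27.3 and 222 in R77H08 and 36.7 and 31.4 in SS00367, and sr were not called, and neither were CG14186, Dop2R, side-II (listed as CG42313) or beat-VII, whose log2 differences ran from -0.33 to 0.19.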

How the data were processed

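Bulk RNA of GFP-positive neurons was sequenced as Smart-seq3 libraries of polyA RNA, 2 for each of 3 drivers at ZT02. The authors deposited normalized signal values per gene, and all of them (100%, tolerance 0.01) were whole multiples of 1 step per library, so that read counts were recovered by dividing by it. The submitters' processing notes name STAR, Cell Ranger and dm6, and the size factor, the annotation and the use of strand are not given in the sources used here. Of 8467 genes listed 20 were at 0 throughout, and 8334 that reached a value of 1 in 2 libraries were tested. R 4.3.3 with limma 3.58.1 fitted log2(value + 1) for 3 groups with a mean-variance trend, and contrasts were VT055068 against the mean of the others and against each. Because of the pseudocount of 1 the log2 differences understate those of low genes. P-values were adjusted by Benjamini-Hochberg over all genes tested, two-sided, and genes were called at an adjusted p under 0.05 and 2-fold. The paper's methods name no test for these libraries. Alternatives used edgeR 4.0.16 and DESeq2 1.42.0 on the recovered reads, other pseudocounts (0.1 and 10), filters, scalings and left-out libraries, and the fit was tested on simulated data. Floors (3 reads over a group) and 95% intervals of read ratios cover counting error only, and libraries of 164631 to 505579 reads limit genes of few reads.

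Genes named are the 15 with the largest called difference in each direction without overlap, called members of the lists, the core clock genes, genes the paper names, the DN3_3 list and defining markers. Members and lists were chosen with earlier results of these data known. Older symbols were matched to RefSeq, positions are those of Ensembl 115 on dm6, and figures were drawn with matplotlib 3.10.9. Single-cell samples were not used here.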

Additional observations from a re-analysis of the deposited data

How the results depend on the processing

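The higher and lower counts moved by over 1.5 times under these settings. With a pseudocount of 0.1, 322 genes were higher and 49 lower against the mean of the other drivers, 212 and 31 against R77H08, and 211 and 44 against SS00367. Without the trend in limma, 45 were lower against the mean, 33 lower against R77H08, and 339 higher and 22 lower against SS00367. Quantile normalization gave 196 lower against the mean and 170 lower against SS00367. DESeq2 gave 62 lower against the mean, and 295 higher and 50 lower against R77H08. With 1 library left out, the counts were 143 to 801 higher and 24 to 149 lower against the mean, 115 to 742 and 24 to 123 against R77H08, and 127 to 668 and 13 to 163 against SS00367, the lone library of a driver being assumed to vary like the others. edgeR (766 higher and 98 lower against the mean), other filters, centring, a pseudocount of 10 and 2 groups in place of 3 stayed within 1.5 times. The replicate letters did not pair the libraries (correlations of 0.00180, 0.0739 and 0.0789 between drivers), and a replicate block gave 639 higher and 109 lower against the mean, 564 and 96 against R77H08, and 554 and 129 against SS00367. Over 151 called genes of the text and its lists, 1449 of 1656 values under 11 settings and 627 of 880 with a library left out kept the call, and none changed sign. The filter left 13 of them untested without either VT055068 library. Genes of few reads are limited by depth: in R77H08 A, the shallowest library, 3 reads are a value of 5.84.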

Other observations

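The study's gene lists of other clock neuron clusters were also counted, beside the 7.26% of all genes that were higher, the 1.13% that were lower and their median log2 difference of 0.04. The DN1a list had 29 of 256 genes higher (11.3%) and 27 lower (10.5%) in VT055068, with a median of -0.06, and the DN2 list 12 of 80 higher (15%) and 9 lower (11.25%), with a median of 0.04. The LNv list had 52 of 533 higher (9.76%) and 11 lower (2.06%), with a median of 0.09, and the LPN_1 list 21 of 202 higher (10.4%) and 9 lower (4.46%), with a median of 0.02. The DN1p_1 list had 28 of 384 higher (7.29%) and 12 lower (3.125%), with a median of 0.04, and the DN1p_2 list 9 of 104 higher (8.65%) and 3 lower (2.88%), with a median of -0.01. Heat shock genes took 0.896% and 1.69% of the summed values in VT055068 A and B, against 0.866% and 1.60% in R77H08 and 2.13% and 2.12% in SS00367. Cytoplasmic ribosomal protein genes took 9.26% and 8.95% in VT055068, against 7.60% and 10.7% in R77H08 and 8.40% and 9.59% in SS00367, and RpS18 was the only 1 of the 84 that was called. Serotonin receptor genes were not called, with 5-HT1A at 9.67 and 13.2 in VT055068, against 46.8 and 29.3 in R77H08 and 11.4 and 6.88 in SS00367.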
